A study of Homo sapiens with 2 samples.

Results

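RUNX2, CCND3, PIM1 and CDC5L are 4 genes of chromosome 6p that are known for gain in osteosarcoma, and their contacts with a single integrated site were measured by 4C-seq. All probes of chromosome 6 that the deposited annotation assigns to these names were taken, where a probe is a window of 50 kb. A probe carries a single name, so windows with another name may hold part of a gene. This gave 8 probes, 3 for RUNX2, 2 each for CCND3 and PIM1 and 1 for CDC5L, out of 470 in the stretch from 34500001 to 58000000 (hg18), 3418 on chromosome 6 and 61607 in all. The cells were U2OS, a human osteosarcoma line, carrying the transgenes DRGFP, TRE-I-SceI and Tet-On, with no treatment recorded. DRGFP is a reporter for repair of a double-strand break by homologous recombination, and the study addressed which sequences lie near its I-SceI cutting site. Both libraries, replicates 1 and 2, belong to 1 group of 2 independent experiments without a control group, so the comparisons are between the 4 genes and the rest of the stretch, and between the libraries.

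In 4C, crosslinked chromatin is cut (here with HindIII), ligated, cut again (with Csp6I) and circularised, and inverse PCR from a chosen fragment recovers the sequences ligated to it. RUNX2 encodes the transcription factor that drives osteoblast formation, CCND3 encodes cyclin D3, which activates CDK4 and CDK6 in G1, PIM1 encodes a serine/threonine kinase of cytokine signalling, and CDC5L encodes a core component of the PRP19 complex of the spliceosome. Gain of 6p is a frequent change of osteosarcoma, and RUNX2 is a gene often named with it. Copy number was not analysed here, so the signal is that of all copies of a locus.

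The libraries held 944456 and 454091 reads in replicates 1 and 2, which makes 1 read worth 1.06 and 2.20 reads per 1000000 reads of the library (RPM). Reads lay on 8.06% and 8.63% of all probes, and the stretch held 4.38% and 3.64% of the reads. Its mean signal was 93.3 RPM per probe in replicate 1 and 77.5 in replicate 2, while its median was 2.12 and 9.91, so a few high probes set the mean. For scale, chromosomes other than 6, 12, 17 and Y had 4.02 and 3.95 RPM per probe. PCR copies are not independent molecules, and the tests below cover counting error of reads only. The intervals below cover only the small number of probes.

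Reads can be recorded only beside HindIII sites. To show what such a site looks like at one of the genes, the 250 bases before 2 RefSeq starts of RUNX2 (GRCh38.p14, plus strand) are printed with the HindIII site (AAGCTT) and the Csp6I site (GTAC) in capitals.
RUNX2 first start, chr6:45328080-45328329: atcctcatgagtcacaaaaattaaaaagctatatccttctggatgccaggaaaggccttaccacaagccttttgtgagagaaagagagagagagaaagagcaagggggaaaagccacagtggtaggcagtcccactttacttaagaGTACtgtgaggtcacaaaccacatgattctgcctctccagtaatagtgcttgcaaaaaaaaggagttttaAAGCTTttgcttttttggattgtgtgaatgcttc
RUNX2 second start, chr6:45422025-45422274: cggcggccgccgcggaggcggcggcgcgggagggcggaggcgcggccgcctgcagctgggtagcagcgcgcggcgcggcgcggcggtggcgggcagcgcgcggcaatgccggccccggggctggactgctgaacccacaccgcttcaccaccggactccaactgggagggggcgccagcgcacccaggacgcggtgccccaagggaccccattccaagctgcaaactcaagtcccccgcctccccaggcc
The first window holds 1 site of each enzyme and the second holds none. Both sites read the same on either strand. Of the 7 RefSeq start windows of the 4 genes, 1 held a HindIII site and 3 a Csp6I site, against 5.02% and 25.5% of all 35116 windows of this length. The windows are from another build than the probes and were used for their letters alone, and the number of HindIII fragments per probe was not known here.

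All 4 genes had reads in both libraries, CDC5L with 1 read in replicate 2, as had 67.1% of the 140 gene names of the stretch. Replicate 1 reached 7 of their 8 probes, replicate 2 reached 8, and 7 were reached by both. In the stretch 59.8% of probes had reads in replicate 1, 66.4% in replicate 2 and 46.0% in both. With so few probes the exact 95% binomial interval (Clopper-Pearson) for the 4 genes ran from 47.3% to 99.7% in replicate 1 and from 63.1% to 100% in replicate 2. The shares of the stretch lay inside both. The interval treats probes as independent, which adjacent windows of a gene may not be, so it may be too narrow. At a minimum of 10 reads, 5 probes remained in replicate 1 and 2 in replicate 2, against 37.7% and 38.7% of stretch probes. Only the first PIM1 probe had 10 reads or more in both, which 18.7% of stretch probes had.

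**Figure D1:**
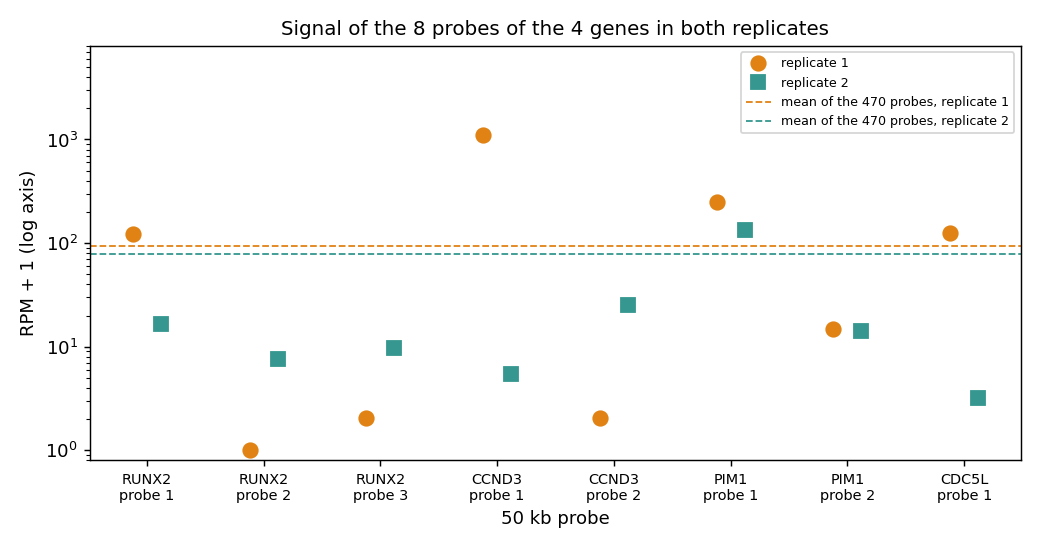
Signal of each 50 kb probe of RUNX2, CCND3, PIM1 and CDC5L, as RPM + 1 on a log axis, with circles for replicate 1, squares for replicate 2 and dashed lines for the mean of the 470 stretch probes. The first PIM1 probe is the single one above both means, and the first CCND3 probe has the widest gap between replicates.

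By its named probes RUNX2 had the lowest mean signal of the 4 genes averaged over both libraries. Its first probe (45500001 to 45550000) had 122 RPM in replicate 1 and 15.4 RPM in replicate 2, which is 115 and 7 reads. The second probe (45550001 to 45600000) had 0 and 6.61 RPM, where 0 reads allow up to 3.18 RPM in replicate 1 by counting error alone. The third (45600001 to 45650000) had 1.06 and 8.81 RPM. The signal of replicate 1 thus sat almost wholly on the first probe, while replicate 2 had a few reads on each of the 3. Per probe RUNX2 averaged 40.9 and 10.3 RPM in replicates 1 and 2, against 93.3 and 77.5 RPM over the stretch, a ratio of 0.439 and 0.133. It lay below the stretch mean in both libraries, and its rank was 55 and 94 among 140 gene names of the stretch. Among the 11 names with the same number of probes it ranked 4 in replicate 1, above their median of 16.9 RPM per probe, and 9 in replicate 2, below their median of 80.7.

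CCND3 had the highest single value of the 4 genes, in replicate 1 alone. Its first probe (42050001 to 42100000) had 1093 RPM in replicate 1 and 4.40 RPM in replicate 2, or 1032 and 2 reads, and 6 stretch probes were higher in replicate 1. Its second probe (42100001 to 42150000) ran the other way, with 1.06 and 24.2 RPM. CCND3 averaged 547 and 14.3 RPM per probe, against 93.3 and 77.5 RPM over the stretch, and ranked 10 and 83 of 140. The ratio to the stretch was 5.86 in replicate 1 and 0.185 in replicate 2, so its direction depended on the library. Without the first probe the mean ratio was 0.162, against a stretch mean that kept its own highest probes.

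PIM1 was the gene whose level differed least between the libraries. Its first probe (37200001 to 37250000) had 248 RPM in replicate 1 and 132 RPM in replicate 2, higher than 88.5% and 82.1% of the stretch probes. Its second probe (37250001 to 37300000) had 13.8 and 13.2 RPM. The first probe was above the second in both libraries. Per probe PIM1 averaged 131 and 72.7 RPM, against 93.3 and 77.5 RPM over the stretch, a ratio of 1.40 and 0.937 that lies above 1 in replicate 1 only. Its rank was 34 and 49 of 140. Among the 32 gene names with the same number of probes it ranked 11 and 16, where CCND3 ranked 3 and 26.

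CDC5L has a single named probe (44500001 to 44550000), with 123 RPM in replicate 1 and 2.20 RPM in replicate 2, or 116 reads and 1 read. The ratio to the stretch mean was 1.32 and 0.0284. It ranked 35 and 103 of 140 gene names, and 18 and 44 among the 76 names with 1 probe.

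By the mean of both libraries the order was CCND3 with 281 ± 377 RPM per probe, PIM1 with 102 ± 41.1, CDC5L with 62.5 ± 85.3 and RUNX2 with 25.6 ± 21.7 (SD, n = 2). No neighbours in this order differed by more than the larger of their SDs. In replicate 1 alone the order was the same, and in replicate 2 alone PIM1 came first, followed by CCND3, RUNX2 and CDC5L. Together the 8 probes averaged 200.1 RPM in replicate 1 and 25.9 RPM in replicate 2, against 93.3 and 77.5 RPM in the stretch. The first CCND3 probe held 68.3% of the reads of the 4 genes in replicate 1. Without it the mean was 72.6 RPM in replicate 1 and 28.9 RPM in replicate 2, below the stretch mean in both. That stretch mean kept its own highest probes, which set it, so the comparison is uneven. Above the stretch mean were 4 of the 8 probes in replicate 1 and 1 in replicate 2, against 18.5% and 21.9% of stretch probes. In both libraries it was 1 of 8, the first PIM1 probe, against 7.23% of stretch probes.

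**Figure D2:**
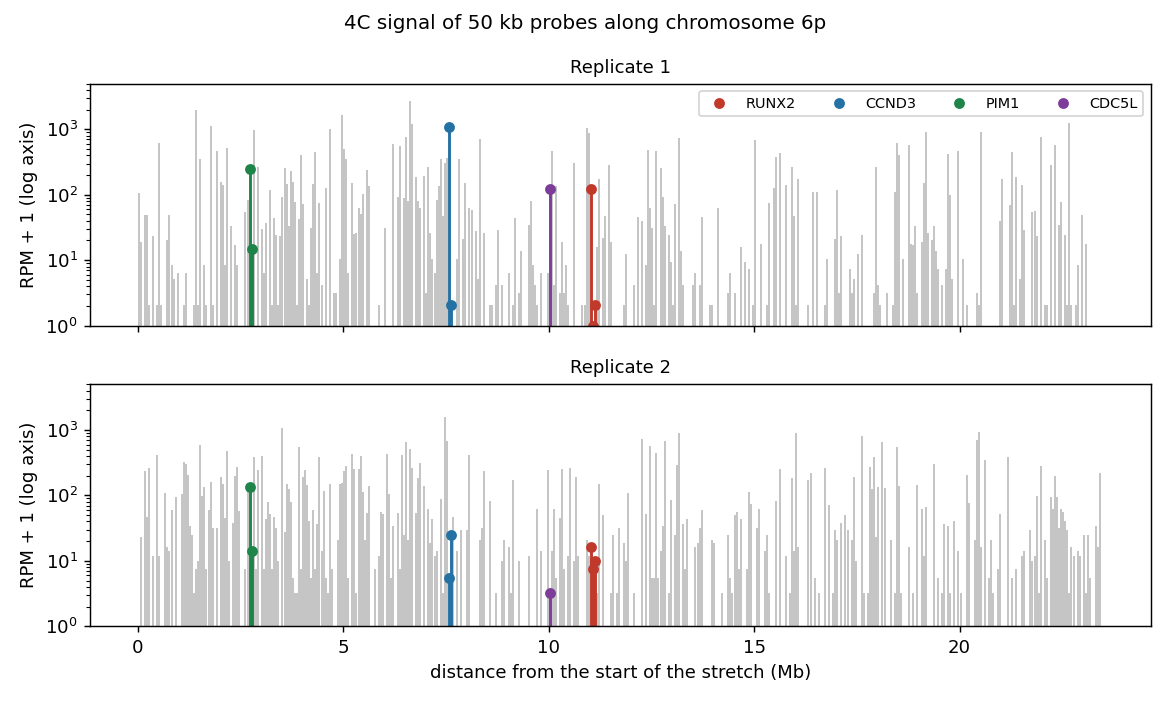
Signal of all 470 probes against the distance from the start of the stretch in Mb, as RPM + 1 on a log axis, replicate 1 above and replicate 2 below, with the probes of the 4 genes in colour and the others in grey. Of the coloured probes only the first of PIM1 lies above the stretch mean in both panels, and higher grey bars stand near each gene in at least one panel.

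The reads of each probe were compared between the libraries by an exact two-sided binomial test against the library sizes, with Benjamini-Hochberg adjustment over all 8750 probes with a read. This test sets the 2 libraries against each other and no condition. It called 49.2% of these probes and 69.2% of the 377 tested in the stretch. Of the 8 probes of the 4 genes it called 5. Higher in replicate 1 were the first probes of CCND3 (adjusted p = 8.79e-170, exact binomial), CDC5L (7.61e-18), RUNX2 (4.60e-12) and PIM1 (1.50e-05). Higher in replicate 2 was the second CCND3 probe (adjusted p = 1.02e-04, exact binomial). In the stretch 30.2% of tested probes were higher in replicate 1 and 39.0% in replicate 2. The second PIM1 probe had an adjusted p of 1 by the same exact test, and the remaining RUNX2 probes, with 3 to 5 reads in all, had 0.0659 and 0.0777.

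The gap between libraries was 248-fold at the first CCND3 probe, 55.8-fold at CDC5L, 22.9-fold at the second CCND3 probe, 8.32-fold at the third RUNX2 probe and 7.90-fold at the first. At PIM1 it was 1.88-fold and 1.04-fold. The median over the 7 probes with reads in both was 8.32-fold, against 6.75-fold over the 216 such probes of the stretch. Over 50-fold apart were 2 of the 7, against 12.5% in the stretch, and within 2-fold were the 2 of PIM1, against 21.3%. A gap as wide as that of CCND3 was found at 8 stretch probes, CCND3 included. Of 42 stretch probes with exactly 1 read in replicate 1, 16 (38.1%) had 10 or more in replicate 2, the second CCND3 probe among them. This share is close to the 38.7% of all stretch probes with 10 or more reads in replicate 2. Of 32 with exactly 1 read in replicate 2, 13 (40.6%) had 10 or more in replicate 1, CDC5L among them, against 37.7% of all stretch probes. Whether such single reads came from the other library was not tested.

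**Figure D3:**
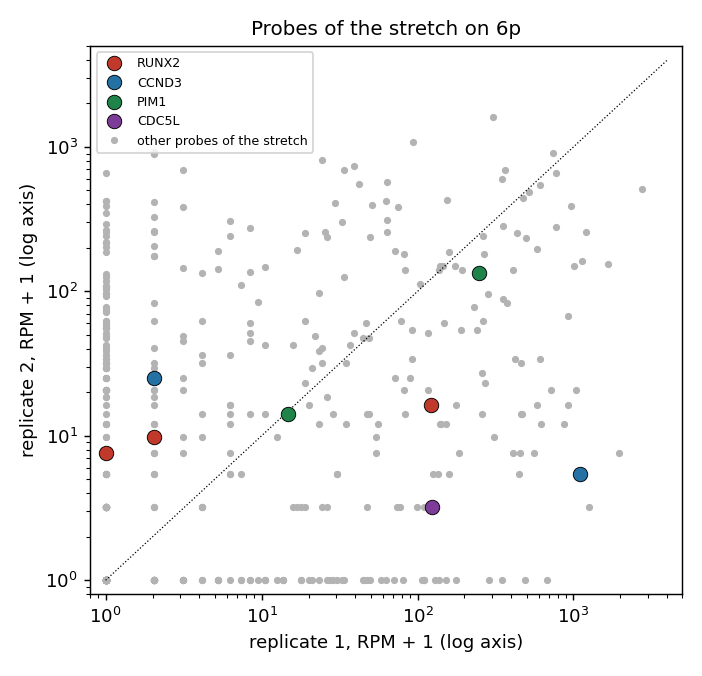
Each probe of the stretch by its signal in replicate 1 (x axis) and replicate 2 (y axis), both as RPM + 1 on log axes, with the dotted line marking equal values. The PIM1 probes lie near the line, and the first CCND3 and the CDC5L probe lie far below it among other probes of the stretch.

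The 10 probes within 250 kb of each gene were set beside the gene. The gene here means its named probes. As no hg18 annotation was used, a neighbouring probe may hold part of the gene. With replicate 1 before replicate 2, the CCND3 probes averaged 547 and 14.3 RPM and its neighbours 156 and 246, and for CDC5L the gene had 123 and 2.20 RPM and its neighbours 61.2 and 37.9. For RUNX2 the gene averaged 40.9 and 10.3 RPM and its neighbours 215 and 23.1, and for PIM1 the gene averaged 131 and 72.7 RPM and its neighbours 139 and 124. The neighbours were thus higher than the gene in both libraries for RUNX2 and PIM1, and in replicate 2 alone for CCND3 and CDC5L.

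Right before the probes named CCND3, the one named BYSL, a gene of ribosome assembly (42000001 to 42050000), had 364 and 687 RPM in replicates 1 and 2. Whether this window also holds CCND3 sequence was not determined. Next to it USP49, a deubiquitinase gene (41950001 to 42000000), had 304 and 1599 RPM, and its value in replicate 2 was the highest of the stretch in that library. FRS3, an adaptor gene of FGF receptors, had 355 and 88.1 RPM. Further on this side the other USP49 probe had 46.6 and 2.20 RPM and TFEB 136 and 0 RPM. On the other side TAF8, a TFIID subunit gene, had 0 and 46.2 RPM, GUCA1A, a gene of photoreceptor signalling, had 9.53 and 13.2 RPM, and of the TRERF1 probes in reach one had 347 and 0 RPM and the other 0 and 28.6. The probes with reads in both libraries ran without a gap for 6 probes, from 41850001 to 42150000, and CCND3 stood at the end of this run.

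Around PIM1 the probe of C6orf128, now TMEM217 (37300001 to 37350000), had 961 and 390 RPM, and one of TBC1D22B (37400001 to 37450000) had 264 and 240 RPM. Both exceeded the first PIM1 probe in both libraries. The other TBC1D22B probe, between these, had 0 and 6.61 RPM. Further out RNF8, whose product ubiquitinates chromatin at breaks, had no reads in either library, and the KIAA0082 probe in reach, now CMTR1, had 28.6 and 405 RPM. PPIL1, a spliceosomal cyclophilin gene, had 0 and 57.3 RPM, and C6orf89 and MTCH1 had none. The run of reads in both libraries covered 5 probes, from 37100001 to 37350000.

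RUNX2 overlaps SUPT3H, a gene of a SAGA complex subunit, in the RefSeq annotation, and each probe has a single name. The probes just before the 3 of RUNX2 carry the name SUPT3H and had 1030 and 19.8 RPM (45400001 to 45450000) and 865 and 11.01 RPM (45450001 to 45500000). Both were far higher in replicate 1 (adjusted p = 1.29e-147 and 4.02e-128, exact binomial), as was the first RUNX2 probe. They are thus the highest of the region in replicate 1 and carry 9 and 5 reads in replicate 2. Which of them hold the start of RUNX2 was not determined, as no hg18 annotation was used. Over its 12 probes, both of these included, SUPT3H averaged 184 and 42.2 RPM, above the 3 probes named RUNX2 in both libraries. This order thus depends on the name that shared windows were given. After the RUNX2 probes, a window with a clone name (45700001 to 45750000) had 173 and 150 RPM. It was above each RUNX2 probe in both libraries and the highest of the 10 neighbours in replicate 2. With 100 kb added on each side, which takes in this window and both SUPT3H windows, the RUNX2 region averaged 315 and 30.5 RPM per probe.

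Beside the CDC5L probe the last one named TMEM151B (44450001 to 44500000) had 5.29 and 242 RPM. RefSeq lists DRC5, AARS2 and SPATS1 before CDC5L, and no probe carries these names. Whether this window holds CDC5L sequence was thus not determined. The next probe on the other side, without a gene name (44550001 to 44600000), had 462 and 13.2 RPM. High values thus fell on different neighbouring windows in the 2 libraries. Exactly 5 probes in a row, from 44450001 to 44700000, had reads in both libraries. SLC29A1, a nucleoside transporter gene, had 5.29 and 13.2 RPM, and CAPN11 had none.

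Widening the window around a gene brought the libraries closer for CCND3 and CDC5L. With 250 kb added on each side, the CCND3 region averaged 221 and 208 RPM per probe, a gap of 1.07-fold where the gene alone had 38.2-fold. For PIM1 the values were 138 and 116 RPM, 1.19-fold apart, against 1.80-fold for the gene alone. For CDC5L they were 66.8 and 34.6 RPM, 1.93-fold apart, against 55.8-fold. For RUNX2 the gap was 8.68-fold with 250 kb, 175 and 20.2 RPM, and 3.98-fold for the gene alone. At 500 kb the gap was 1.08-fold for CCND3, 1.12-fold for PIM1, 1.10-fold for CDC5L and 3.84-fold for RUNX2, and at 1000 kb it was 1.76-fold, 1.10-fold, 2.29-fold and 2.78-fold in the same order. RUNX2 had the widest gap of the 4 regions at each width beyond the gene, with replicate 1 higher each time. For CCND3 replicate 2 was higher at 100 kb, by 1.34-fold. The close averages around CCND3 came from different windows. The first CCND3 probe had 1093 and 4.40 RPM, and a USP49 probe 304 and 1599 RPM. Gaps at these widths were not set beside those of other regions of the stretch.

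**Figure D4:**
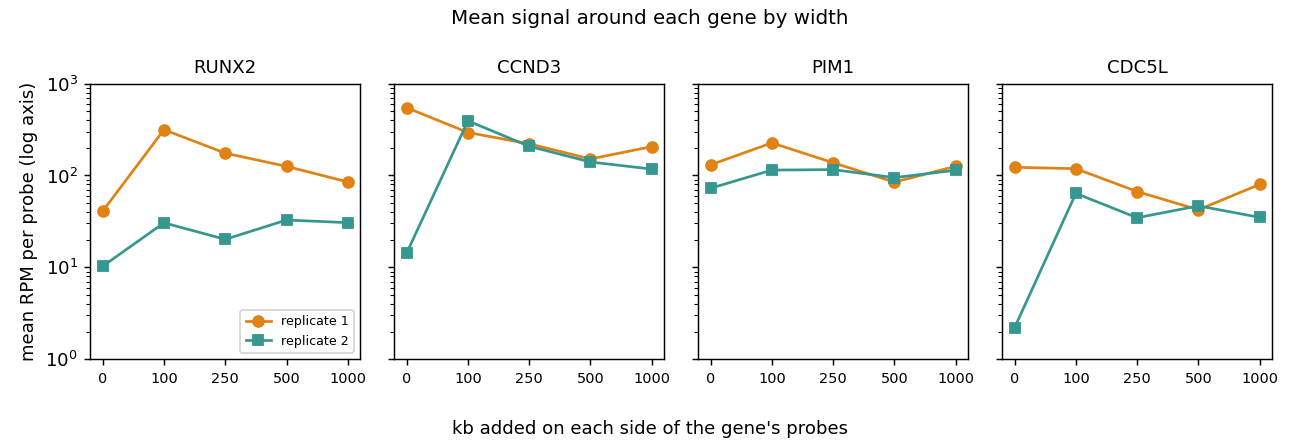
Mean RPM per probe on a log axis for each gene alone (0 kb) and with 100, 250, 500 and 1000 kb added on each side, circles for replicate 1 and squares for replicate 2. The replicates lie within 1.08-fold at 250 and 500 kb for CCND3 and within 1.10-fold at 500 kb for CDC5L, and for RUNX2 replicate 1 lies above replicate 2 at each width.

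The 1 Mb windows that hold the genes differed in level. Of 23 full windows of the stretch, the one with PIM1 (37 to 38 Mb) had 94.9 and 80.1 RPM per probe and ranked 10 and 9 in replicates 1 and 2. That of CCND3 (42 to 43 Mb) had 144 and 77.0 RPM and ranked 3 and 11. That of RUNX2 (45 to 46 Mb) had 144 and 36.3 RPM and ranked 4 and 17, and that of CDC5L (44 to 45 Mb) 44.4 and 36.1 RPM, ranked 19 and 18. None was the first in either library, which was the window from 41 to 42 Mb with 328 and 199 RPM, just before CCND3. The window between those of CCND3 and CDC5L, from 43 to 44 Mb, had 5.03 and 15.6 RPM and ranked 23 and 22.

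Of the 5 gene names of the stretch with the highest level in their lower library, 2 adjoin the 4 genes, C6orf128 beside PIM1 and BYSL beside CCND3. The others were GSTA4, a glutathione transferase gene, with 612 and 540 RPM, UNC5CL with 2754 and 511 RPM and SFRS3 (now SRSF3), a splicing factor gene, with 517 and 484 RPM. By this measure PIM1 ranked 26, CCND3 49, RUNX2 57 and CDC5L 75 of 140. Each of the 5 highest names has a single probe, while PIM1 and CCND3 are averaged over 2 probes and RUNX2 over 3. The genes nearest in level were found by the distance between mean log2(RPM + 1) over the 2 libraries, which is a description over 2 points. For PIM1 they were ZFAND3 (0.315) and the kinesin gene KIF6 (0.381), for CCND3 SRPK1, a kinase gene of splicing factors (0.606), and MEP1A (0.825). For RUNX2 they were SUPT3H (0.617) and LRRC1 (0.817), and for CDC5L TFEB, a transcription factor gene of lysosome formation (0.324), and ELOVL5 (0.436). ZFAND3 averaged 100.5 and 188 RPM per probe, KIF6 302 and 167, and SRPK1 983 and 7.71.

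Most other genes named with 6p gain that lay in the same stretch had reads. Of 11 such genes found, 7 lay in the stretch and 6 of these had reads in both libraries, as had 67.1% of the 140 gene names there. SUPT3H led them. TNFRSF21, a death receptor gene, had 16.4 and 344 RPM per probe, TFEB 109 and 6.61, PRIM2, a primase subunit gene, 9.26 and 10.7 and PTK7 3.18 and 2.20. VEGFA, the gene of an angiogenic factor, had no reads in either library at its single probe, which allows up to 3.18 and 6.61 RPM by counting error alone. The 4 genes found before the stretch, E2F3, HMGA1, ID4 and DEK, had reads in both libraries in 0 cases, and only HMGA1 had any, with 2.20 RPM in replicate 2. In the rest of chromosome 6, outside the stretch, 5.77% of probes had reads in both libraries.

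Lists of genes that work with the 4 were read against all 12945 gene names, of which 7.26% had reads in both libraries and 73.6% in neither, with a median level of 0 RPM in each. Of 12 genes gained in osteosarcoma elsewhere, 1 had reads in both, IGF1R with 1.51 and 7.24 RPM per probe, and 9 had none, a share close to that of all names. Of 17 partners and targets of RUNX2, 1 had reads in both, the corepressor gene TLE1 with 0.353 and 2.94 RPM, and 12 had none. RUNX1 and RUNX3, its paralogues, had none, and CBFB, its binding partner, had 0 and 2.20 RPM.

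Of 12 genes of the cyclin D pathway, 3 had reads in both libraries, and 2 of these lie on chromosome 12, which carries the strongest signal of the series. CDKN1B, which encodes the inhibitor p27 (12750001 to 12800000), had 1931 and 1374 RPM, and CCND2, the paralogue of CCND3 (4250001 to 4300000), 20.1 and 127.7 RPM. The third, RBL1, had 0.353 and 1.47 RPM, and 8 genes, CCND1 among them, had no reads. Of 10 genes of the PIM pathway 1 had reads in both, JAK2 with 0.265 and 178 RPM, and 9 had none. Of 13 members of the CDC5L complex 1 had reads in both, BUD31 with 29.6 and 4.40 RPM, PPIL1, in the stretch, had reads in replicate 2, and 11 had none.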

How the data were processed

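Per the labels' protocols, chromatin of U2OS cells was fixed with formaldehyde, cut with HindIII, ligated, cut with Csp6I, circularised and amplified from primers in DRGFP. The signal that the authors deposited gives 1 value per library and 50 kb probe, with hg18 as the build in the submitters' processing notes. For the aligner, filters and counting tool, nothing is stated in those notes, the labels or the header. The values were whole multiples of their smallest value in 100% of cases, within 0.1 read, so reads were recovered as multiples; the signal is called RPM. Total and mean rows and the mitochondrial probe were left out.

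Probes were chosen by chromosome and gene name. Each library was described alone, with mean ± SD over both. The exact binomial test was tried on simulated reads with counting error alone. These hold no PCR copies, so the trial does not give the error rate of the test in these libraries. Alternatives changed the library, the scale, the read minimum, the background region and the probes used. Named were the 4 genes, names within 250 kb, the 2 most alike names, the 5 highest of the stretch and list members with reads in both, at most 5 per list, by the lower library; VEGFA, E2F3, HMGA1, ID4, DEK, RUNX1, RUNX3, CBFB and CCND1 were added after their values were seen. The 4 genes and the 6 lists were chosen with earlier results of these data known. Analyses used Python 3.11.15, numpy 2.4.6, scipy 1.17.1 and pandas 2.3.3.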

Additional observations from a re-analysis of the deposited data

How the results depend on the processing

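No paired analysis was possible because both libraries form a single group. The mean ratio of RUNX2 to the stretch, 0.286, ran from 0.133 to 0.439 over single libraries, and stayed below 1 in each setting tried. It was 0.891 and 0.765 as a ratio of geometric means of RPM plus a pseudocount of 1 and 10. Such a ratio is 2 to the power of the difference in mean log2 values. Against the stretch without its 5% highest probes the RUNX2 ratio was 0.573, and without the gene's highest probe 0.0525. For each gene, the setting without its highest probe kept the highest probes of the stretch. No setting added the windows named SUPT3H just before RUNX2 to the gene. CCND3, at 3.02, ran from 0.185 to 5.86 over single libraries and was 0.162 without its highest probe. It was 6.30 (SD 8.47 over the 2 libraries) against the stretch without its 5% highest probes. Against 1 Mb on either side it was 1.504 (SD 1.96). Both SDs exceeded their means, so the libraries were far apart in these settings too. PIM1, at 1.17, ran from 0.937 to 1.40, and was 5.89 and 2.35 by geometric means with pseudocounts of 1 and 10. It was 2.27 against the stretch without its 5% highest probes, 0.833 against 1 Mb on either side and 0.159 without the gene's highest probe. CDC5L, at 0.672, ran from 0.0284 to 1.32. By geometric means it was 8.17 (SD 11.1 over the 2 libraries) and 2.63 (SD 3.17), and without the 5% highest probes 1.40 (SD 1.92). Each of these SDs exceeded its mean, so these values do not show that CDC5L was raised in both libraries. The causes of these moves were not tested. With a minimum of 10 reads the share of probes with reads was 16.7% for RUNX2, where the main value was 83.3%, and 50% for CCND3, 75% for PIM1 and 50% for CDC5L, where it was 100%, and the number of probes with reads in both libraries was 1, where it was 7. The binomial test called 7 of the 8 probes with reads scaled by those of the stretch and 5 in the other settings. The share of stretch probes called is given for the main setting alone, where it was 69.2%. The count of 7 thus has no share of its own setting beside it. The scale of the library cancels in the ratios. At this depth a count of 0 allows up to 3 reads by counting error alone, 3.18 and 6.61 RPM in replicates 1 and 2. As PCR copies are not independent, this does not bound the level of contact.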
